A study of Mus musculus with 28 samples.

Results

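The genes described here are the ephrins, the Eph receptors, the semaphorins, the plexins, the neuropilins and the Slit, Robo, netrin and Unc5 genes, measured in mouse mammary cells that carried an oncogenic PIK3CA and in the tumours that arose from them. A gene was a member when its single annotated symbol began with one of these family names, and 68 of 17097 genes on the array met that rule: 20 semaphorins, 13 Eph receptors, 10 genes with a plexin symbol, 7 ephrins, 6 genes with an Unc5 symbol, 4 Robo genes, 4 netrins, 2 neuropilins and 2 Slit genes. The rule reads symbols only, so it also took in Unc50, whose worm counterpart traffics receptors, Unc5cl, a death-domain protein that is no netrin receptor, and the antisense RNA Plxna4os1. Each gene was read from 1 probe set, the one with the highest mean over 28 arrays, and 38 of the 68 members had several to choose from.

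Cells were sorted by flow cytometry from mammary glands of female mice that received 3 injections of 5 mg tamoxifen from 4 to 5 weeks of age, and their total RNA was hybridised to 28 Affymetrix arrays. The Cre recombinase was tamoxifen-inducible and came from the keratin 5 promoter, active in basal cells (K5CREERT2), or from the keratin 8 promoter, active in luminal cells (K8CREERT2). All mice carried a Cre-activated YFP reporter (RosaYFP), the PIK groups also carried PIK3CA-H1047R, a breast cancer mutant of the kinase subunit, and 1 tumour group carried p53flox/flox as well. The study asked how the mutant kinase changes the identity of cells of either origin and the tumours they form.

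The oncogene groups at 10 months after tamoxifen were YFP+ luminal and YFP+ basal cells with K5CREERT2, PIK3CA-H1047R and RosaYFP (K5-PIK luminal, K5-PIK basal), and at 8 weeks YFP+ basal and YFP+ luminal cells with K8CREERT2, PIK3CA-H1047R and RosaYFP (K8-PIK basal, K8-PIK luminal). The tumour groups were tumour cells of the K5-PIK genotype (3 arrays), of K8-PIK mice that also had p53flox/flox (2 arrays, K8-PIK-p53) and of the K8-PIK genotype (7 arrays), with no age given. The controls without the oncogene were YFP+ basal cells of K5CREERT2/RosaYFP mice and YFP+ luminal cells of K8CREERT2/RosaYFP mice, at 8 weeks and at 10 months. Each sorted group had 2 arrays. The control of a gate therefore carries 1 Cre driver only: K8-PIK basal cells were set against basal cells of the K5 driver and K5-PIK luminal cells against luminal cells of the K8 driver, and there oncogene and driver cannot be told apart. Between YFP basal and YFP luminal cells, gate and driver changed together. The labels do not say whether arrays of a group came from separate mice, so the p-values measure the spread between these samples.

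Ephrins are membrane-bound ligands that activate Eph receptor tyrosine kinases on the neighbouring cell, and the ephrin-bearing cell can signal in return. Semaphorins act through plexins, with neuropilins as co-receptors for most of the secreted class 3 members, Slit proteins through Robo receptors, and netrins through receptors that include the Unc5 proteins. All are known as cues for growing axons, and several also set cell adhesion, duct branching and the layering of basal and luminal cells in the mammary gland, as well as vessel growth.

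Levels are log2 values as deposited, on which a difference of 1 is a doubling, and the arrays' 40th percentiles lay between 3.89 and 3.99. A gene was tested if it passed that percentile on at least 2 arrays of the fit. Of the 68 members, 56 were tested in the 16 sorted arrays, 56 in the 12 tumour arrays and 57 in all 28, while 43 passed on every array. The 11 that passed on none were Epha10, Epha5, Epha6, Epha8, Plxna4os1, Plxnc1, Robo2, Robo3, Sema3d, Sema3e and Unc5d, and nothing below is about them. Calls were made with limma at an adjusted p under 0.05 over all genes tested, and differences are given ± their SE. Where a group lay below the percentile, as YFP luminal cells did for Ephb1, Epha7, Robo4, Sema3g and Slit2 at 10 months, its level is only bounded and the size of the difference is uncertain.

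The gates matched their labels. The 11 basal markers averaged 9.22 to 9.73 on all basal arrays and 5.14 to 6.64 on all luminal arrays, and the 13 luminal markers 6.78 to 8.33 on basal arrays and 9.33 to 10.2 on luminal arrays. The K8-PIK luminal arrays had Krt5, the basal keratin, at 11.2 and 9.99, against 7.45 and 8.09 on the YFP luminal arrays of that time. Markers of endothelium went with the YFP basal gate: 12 of 12 lay above the 40th percentile on every YFP basal array, where they averaged 6.13 to 7.19, against 9 to 10 of 12 and 4.72 to 5.65 on YFP luminal arrays. In the K5-PIK gates the same markers averaged 4.51 to 5.05 (luminal) and 4.56 to 5.41 (basal), and in the K8-PIK gates 5.70 to 5.91 (basal) and 4.92 to 5.55 (luminal). In bulk cells, fewer cells of a type and less RNA per cell cannot be told apart.

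In the normal gland, more of these genes were higher in basal cells than were lower. At 8 weeks, 22 of the 56 tested members (39.3%) were higher in YFP basal than in YFP luminal cells, against 10.4% of all genes tested, and 7 (12.5%) were lower, against 19.9%. At 10 months 26 members (46.4%) were higher, against 17.6% of all genes, and 11 (19.6%) were lower, against 25.8%. The median difference of the members was 0.27 at 8 weeks and 0.41 at 10 months, where that of all genes was -0.09 and -0.12. The 2 ages share no array: 20 of the 22 members higher at 8 weeks (90.9%) were among the 26 at 10 months (76.9% of those), and 6 of the 7 lower ones (85.7%) were among the 11 (54.5%). The overlap over all genes was not computed. A test of the change in the basal-luminal gap between the ages called no member, against 0.0532% of all genes, with 13 members and 1654 genes at an unadjusted p under 0.05.

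**Figure D1:**
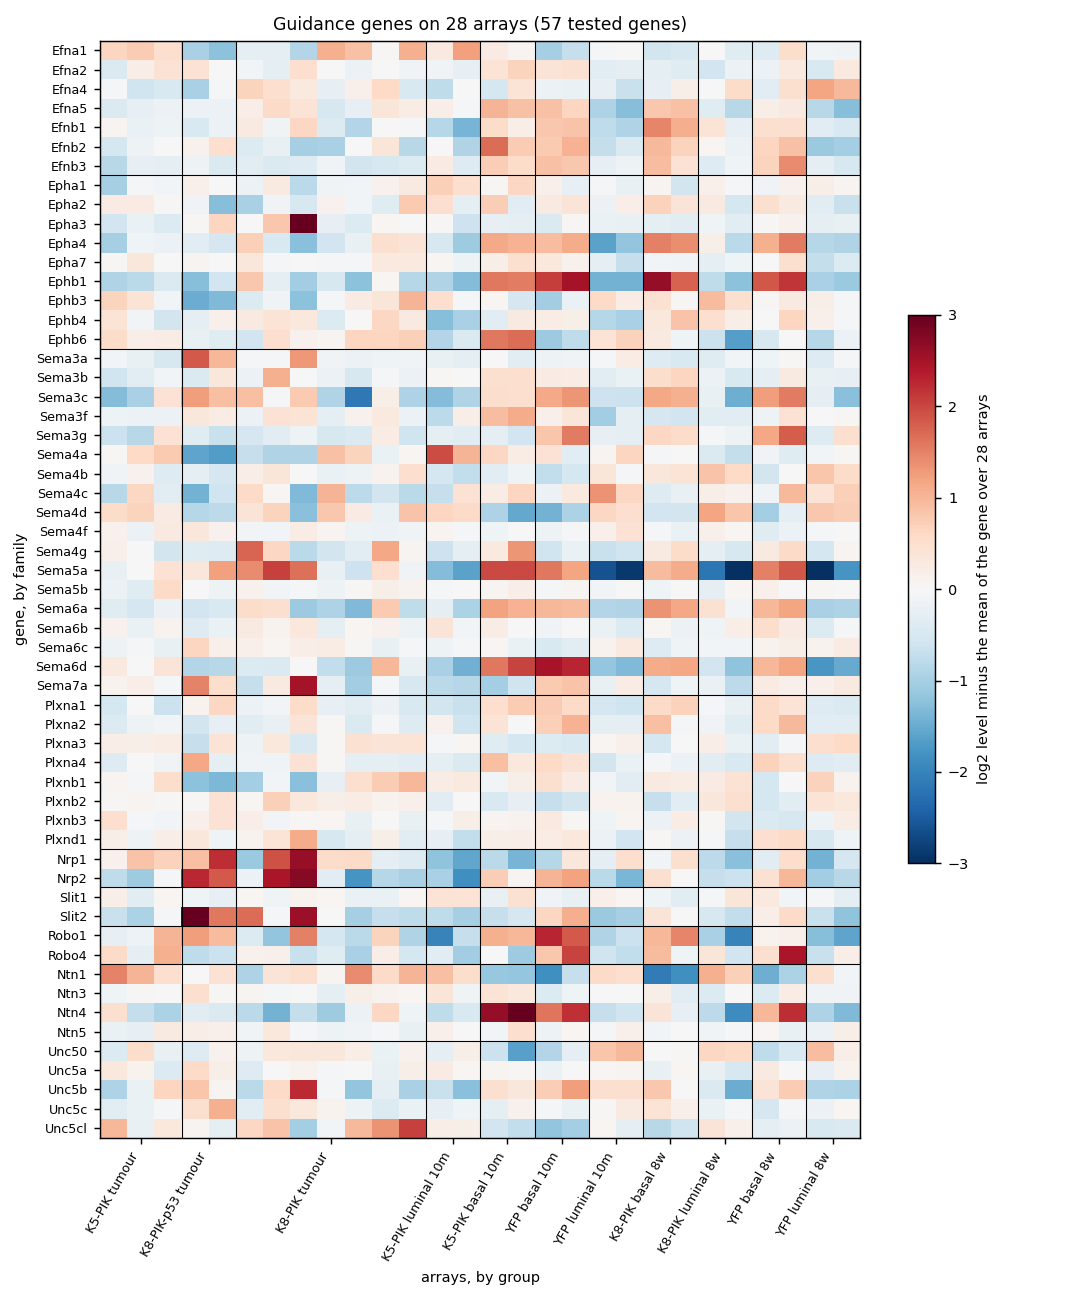
Levels of the 57 members tested in all arrays (rows, by family) on the 28 arrays (columns, by group), as the log2 level minus the mean of the gene over all arrays, with the colour limited to 3 units either way. Red blocks for Ephb1, Epha4, Sema5a, Sema6a and Sema6d mark the basal groups, while Ntn1 and Sema4d are blue there, and K8-PIK tumour 3, the third column of its group, has isolated high values such as Epha3 at 7.76.

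Among Eph receptors, Ephb1, a receptor for B-type ephrins, differed most. Ephb1 was at 6.73 and 7.13 in YFP basal cells at 10 months, against 3.22 and 3.22 in YFP luminal cells. At 8 weeks it was at 6.50 and 6.79 in YFP basal cells, against 3.68 and 3.53 in YFP luminal cells, which is below the 40th percentile of the arrays. The gap was 3.71 ± 0.27 at 10 months (adjusted p = 1.38e-06) and 3.04 ± 0.27 at 8 weeks (adjusted p = 1.39e-05). Epha4, which binds ephrins of both classes, was at 7.60 and 7.79 in YFP basal cells at 10 months, against 5.08 and 5.48 in YFP luminal cells, a gap of 2.42 ± 0.30. Epha7 lay near the detection limit in both gates and was higher in basal cells by 0.69 at 10 months and 0.79 at 8 weeks. Ephb4, the receptor of ephrin-B2 on veins and in the mammary epithelium, was called at 10 months only, at 7.44 and 7.39 in YFP basal cells, against 6.36 and 6.25 in YFP luminal cells. The opposite order was found at 10 months for Ephb6, a kinase-dead member of the family, at 4.67 and 5.00 in YFP basal cells, against 6.18 and 6.45 in YFP luminal cells, and for Ephb3, at 5.73 and 6.56, against 7.37 and 7.00. Epha2, an ephrin-A receptor widely expressed in epithelia, was called in neither comparison, at 9.01 and 9.13 in YFP basal cells at 10 months, against 8.56 and 8.95 in YFP luminal cells.

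The ligands leaned the same way. All 3 B-type ephrins were higher in YFP basal cells at both ages, though Efnb1 at 8 weeks lost its call when any 1 of the 4 arrays was left out and Efnb3 at 10 months when 1 of them was. Efnb2, which marks arteries and also occurs in mammary epithelium, was at 8.81 and 9.05 in YFP basal cells at 10 months, against 7.30 and 7.58 in YFP luminal cells, a gap of 1.49 ± 0.31. Efnb1 was at 8.45 and 8.50, against 6.87 and 6.73 in YFP luminal cells, a gap of 1.68 ± 0.24, and the gap at 8 weeks was 0.88 ± 0.24. Efnb3 was at 5.71 and 5.63, against 4.59 and 4.68 in YFP luminal cells. Of the A-type ephrins, Efna5 was at 9.25 and 9.01 in YFP basal cells at 10 months, against 7.44 and 7.09 in YFP luminal cells (1.87 ± 0.21, adjusted p = 3.26e-05). Efna1 ran the other way at 10 months only, at 8.24 and 8.55, against 9.20 and 9.26 in YFP luminal cells, and its adjusted p of 0.0442 was lost when any 1 of the 4 arrays was left out. In YFP cells the basal gate was thus higher in the ligands Efnb1, Efnb2 and Efnb3 and in the receptors Ephb1 and Epha4. With the endothelial mean as a covariate (below), Efnb2 and Efnb3 lost their calls at both ages and Efnb1 at 8 weeks. Of these ligands only Efnb1 was called in all 4 gate comparisons given below.

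Semaphorins gave the widest gap of any member. Sema5a, a transmembrane semaphorin with thrombospondin repeats, was at 8.63 and 8.24 in YFP basal cells at 10 months, against 4.44 and 4.15 in YFP luminal cells. At 8 weeks it was at 8.58 and 8.93 in YFP basal cells, against 4.00 and 5.29 in YFP luminal cells. The basal level was 17.6-fold higher at 10 months (4.14 ± 0.38 in log2, adjusted p = 7.25e-06) and 17.2-fold higher at 8 weeks (4.11 ± 0.38, adjusted p = 1.77e-05). The transmembrane Sema6d was at 8.84 and 8.67 in YFP basal cells at 10 months, against 5.22 and 5.05 in YFP luminal cells (3.62 ± 0.24), and Sema6a at 8.80 and 8.75, against 6.93 and 6.89 (1.87 ± 0.23). Sema3c, a secreted ligand of neuropilins, was at 8.50 and 8.69, against 6.73 and 6.72 in YFP luminal cells (1.87 ± 0.36), and Sema3g, known best from arteries, at 4.78 and 5.49, against 3.70 and 3.66. On the luminal side at both ages were 2 semaphorins of class 4. Sema4d, a ligand of Plxnb1 and Plxnb2, was at 6.04 and 6.52 in YFP basal cells at 10 months, against 8.09 and 7.96 in YFP luminal cells, a gap of -1.75 ± 0.26 (adjusted p = 0.000249), and -1.44 ± 0.26 at 8 weeks. Sema4b was also lower in basal cells, with a difference of -0.97 ± 0.21 at 8 weeks. Sema4a, Sema4c, Sema4f and Sema4g were called at neither age. For Sema6c and Sema7a, both called at 10 months, the other probe sets of the gene did not all point the same way, and neither kept its call on the mean of the probe sets.

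Plexins were called in both directions. The A-type plexins Plxna1, Plxna2 and Plxna4, receptors for class 3 (with neuropilins) and class 6 semaphorins, were higher in basal cells at both ages. Plxna1 was at 7.94 and 7.76 in YFP basal cells at 10 months, against 6.68 and 6.58 in YFP luminal cells (1.22 ± 0.15). Plxna2 was at 5.82 and 6.15, against 4.82 and 4.83. Plxna3 and the B-type Plxnb2, a receptor of class 4 semaphorins, were lower in basal cells at both ages, with Plxnb2 at 7.89 and 8.04, against 8.70 and 8.70 in YFP luminal cells (-0.73 ± 0.18). Sema4d and its receptor Plxnb2 were both called on the luminal side, but Plxnb2 lost its call at both ages with the endothelial mean as a covariate. The neuropilin Nrp2 was at 7.00 and 7.20 in YFP basal cells at 10 months, against 5.17 and 4.61 in YFP luminal cells (2.21 ± 0.32). The other neuropilin, Nrp1, was called at neither age, and its arrays overlapped, at 5.58 and 6.79 in YFP basal cells at 10 months, against 6.18 and 6.94 in YFP luminal cells.

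Robo1, a Slit receptor, was at 10.2 and 9.77 in YFP basal cells at 10 months, against 7.03 and 7.29 in YFP luminal cells (2.84 ± 0.39, adjusted p = 0.000133). At 8 weeks it was at 8.04 and 8.08 in YFP basal cells, against 6.66 and 6.36 in YFP luminal cells (1.55 ± 0.39). Its ligand Slit2 was also basal, at 5.04 and 5.50 at 10 months, against 3.28 and 3.40 in YFP luminal cells (1.92 ± 0.23). Robo4, the Robo receptor of endothelium, was at 4.71 and 5.94 in YFP basal cells at 10 months, against 3.31 and 3.18 in YFP luminal cells. The 2 netrins that changed went in opposite directions. Ntn4, a netrin of basement membranes, was at 7.96 and 8.54 in YFP basal cells at 10 months, against 5.66 and 5.76 in YFP luminal cells (2.54 ± 0.42). Ntn1, the axon guidance netrin, was at 5.26 and 6.41, against 7.67 and 7.60 in YFP luminal cells (-1.80 ± 0.33, adjusted p = 0.000921). The netrin receptor Unc5b was higher in basal cells at 8 weeks only, at 7.42 and 7.79, against 6.12 and 6.07, while at 10 months it was at 7.77 and 8.28 in YFP basal cells, against 7.50 and 7.51 in YFP luminal cells.

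Because the endothelial markers moved with the YFP basal gate (10 of 12 called higher at 8 weeks and 11 of 12 at 10 months), the comparisons were refitted with their mean as a covariate. At 8 weeks 10 of the 29 calls held: Efna5, Epha4, Ephb1, Plxna1, Sema3c, Sema5a, Sema6a and Sema6d on the basal side and Ntn1 and Sema4d on the luminal side. At 10 months 18 of 37 held, among them those 10, Efnb1, Nrp2, Robo1, Slit2 and Ephb6. Robo4 turned to -0.38 under the covariate. Calls on Efnb2, Efnb3, Epha7, Ntn4, Plxna2, Plxna3, Plxna4, Plxnb2, Plxnd1, Sema3g and Sema4b were lost at both ages. The endothelial means did not overlap between the YFP gates (6.13 to 7.19 basal, 4.72 to 5.65 luminal), with 2 arrays per group. Covariate and gate are therefore hard to separate, and a lost call does not show which cells a transcript came from. Markers of other cell types also moved with the YFP basal gate. Of 5 pericyte markers tested, 3 were higher and 1 lower at 8 weeks, and 2 were higher and 1 lower at 10 months. Of 6 fibroblast markers, 0 were called at 8 weeks and 1 at 10 months, with median differences of 1.32 and 1.61. Of 8 leukocyte markers 2 were higher at 10 months, as was the adipocyte marker Fabp4. Of 4 Schwann cell and neuron markers, 2 were higher at 8 weeks (Mbp and Tubb3) and 1 at 10 months (Mbp), with median differences of 0.87 and 0.38. Their part in the members' differences was not tested.

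**Figure D2:**
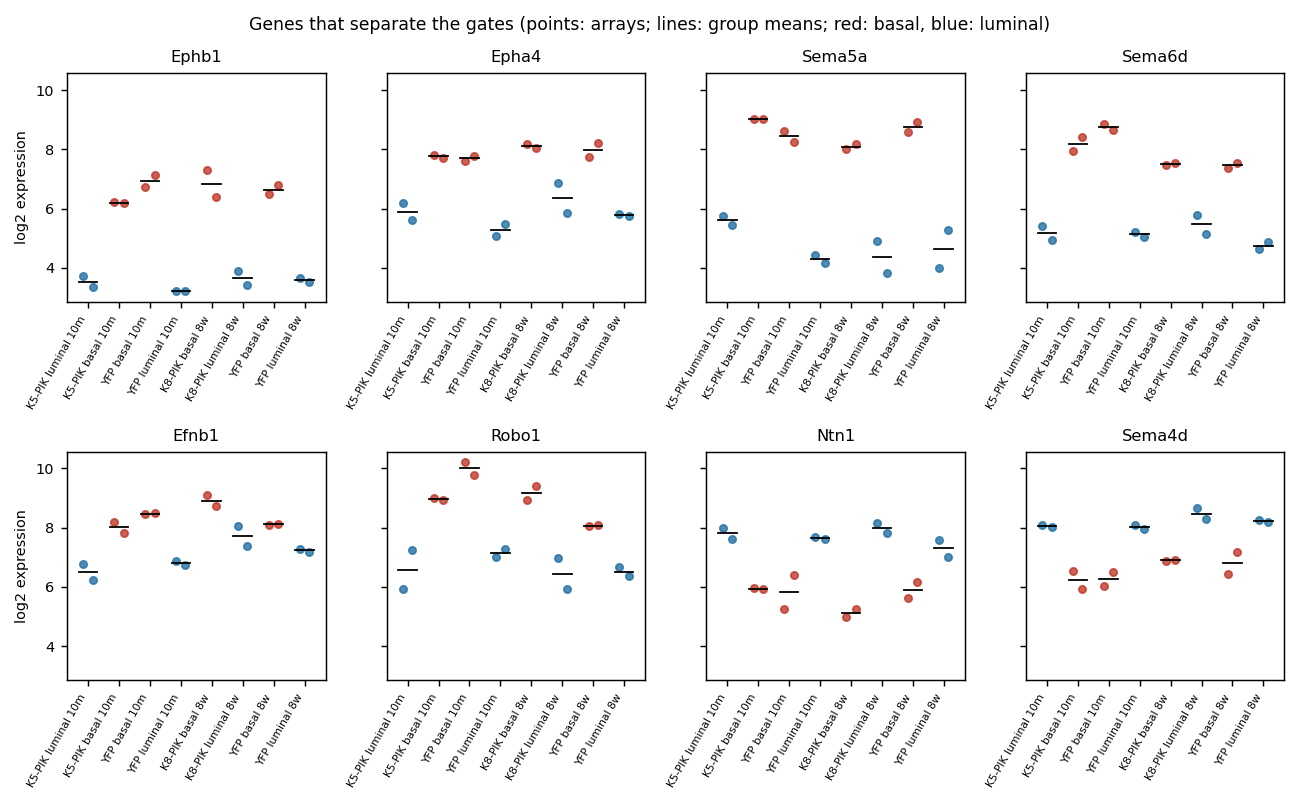
Log2 levels of 8 members in the 8 sorted groups, 1 point per array (2 per group), with lines at group means, basal groups in red and luminal groups in blue. For Ephb1, Sema5a, Sema6d, Ntn1 and Sema4d every basal array lies on one side of every luminal array, whatever the genotype and age, with Ephb1 at 6.19 to 7.29 on basal and 3.22 to 3.89 on luminal arrays.

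Part of these gate differences was also called among cells that carried the oncogene and came from 1 driver each. In K8-PIK cells at 8 weeks, basal cells that descend from the luminal driver had 16 members higher than luminal cells of that genotype (8.9% of all genes) and 4 lower (10.6%). Of those, 14 of the 16 (87.5%) were also higher in the YFP basal gate at 8 weeks (63.6% of its 22), and 3 of the 4 lower ones (75.0%) were among its 7 lower ones (42.9%). Ephb1 was at 7.29 and 6.41 in K8-PIK basal cells, against 3.89 and 3.42 in K8-PIK luminal cells (3.19 ± 0.27), and Sema5a at 8.00 and 8.16, against 4.89 and 3.84 (3.71 ± 0.38). Robo1 was at 8.93 and 9.40, against 6.97 and 5.93 (2.71 ± 0.39). Ntn1 fell furthest, to 5.00 and 5.25 in K8-PIK basal cells, against 8.16 and 7.82 in K8-PIK luminal cells (-2.86 ± 0.33, adjusted p = 9.78e-05). Ephb6 was also called here, higher in K8-PIK basal cells by 1.21 ± 0.33. One endothelial marker of 12 was called in this comparison, and 16 of the 20 calls held with the endothelial mean as a covariate.

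In K5-PIK cells at 10 months, luminal cells that descend from the basal driver had 20 members lower than K5-PIK basal cells, against 13.2% of all genes, and 5 higher, against 10.4%. The median difference was -0.31 for the members and -0.01 for all genes. Here 0 of 12 endothelial markers were called by limma, their means overlapped between the gates, and 24 of the 25 calls held with the covariate. Of the 20 lower members, 17 (85.0%) were among the 26 higher in YFP basal cells at 10 months (65.4% of those), and 4 of the 5 higher ones (80.0%) were among the 11 lower there (36.4%). Ephb1 was at 3.74 and 3.34 in K5-PIK luminal cells, against 6.23 and 6.19 in K5-PIK basal cells (-2.67 ± 0.27, adjusted p = 2.13e-05). Sema5a was at 5.76 and 5.46, against 9.04 and 9.03 in K5-PIK basal cells (-3.42 ± 0.38), and Sema6d at 5.41 and 4.94, against 7.95 and 8.41 (-3.01 ± 0.24). Ntn4 had the largest difference, at 5.58 and 5.90 in K5-PIK luminal cells, against 8.98 and 9.59 in K5-PIK basal cells (-3.55 ± 0.42), and it kept its call with the endothelial covariate, as did Efnb1, Efnb2, Nrp2, Plxna4 and Robo1. Ntn1 was at 7.99 and 7.62 in K5-PIK luminal cells, against 5.96 and 5.93 (1.87 ± 0.33), and Sema4d at 8.10 and 8.03, against 6.53 and 5.92 (1.84 ± 0.26).

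Across the 4 gate comparisons, 11 members were called on the basal side in every one (Efna5, Efnb1, Epha4, Ephb1, Ntn4, Plxna1, Robo1, Sema3c, Sema5a, Sema6a and Sema6d) and 2 on the luminal side (Ntn1 and Sema4d). Efna5, Efnb1, Ntn4, Plxna1, Robo1, Sema6a and Ntn1 each lost the call in some of these comparisons when an array was left out. With the endothelial covariate, Ntn4 kept its call in K5-PIK cells only. Efnb1 and Robo1 lost theirs in YFP cells at 8 weeks. The comparisons share no array, though they share 1 estimate of the spread. How many of all genes were called in every one, or shared between the pairs of comparisons above, was not computed. The overlaps therefore do not show whether members recurred more often than other genes. Among the called members with several detected probe sets, the sets pointed the same way for all 19 at 8 weeks, for 21 of 23 in YFP cells at 10 months, for all 12 in K8-PIK and for all 17 in K5-PIK cells.

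**Figure D3:**
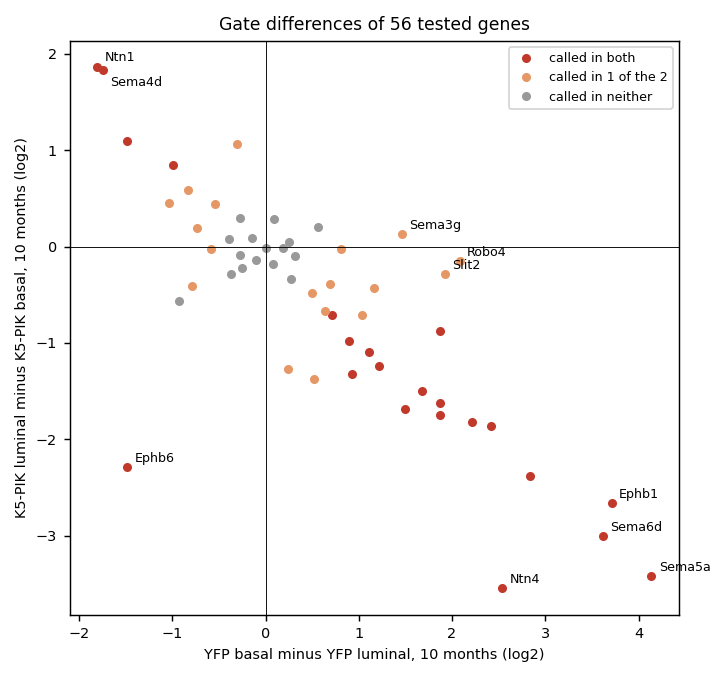
The difference of YFP basal minus YFP luminal cells at 10 months (horizontal axis, log2) and of K5-PIK luminal minus K5-PIK basal cells at 10 months (vertical axis, log2) for the 56 tested members, coloured by whether a member was called. Members with the same gate order in both lie in the upper left and lower right, as Ntn1 and Sema5a do, while Ephb6, in the lower left at -1.48 and -2.29, is the one member called in both with opposite gate orders.

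Of 50 tested effectors, co-receptors and non-family ligands of guidance signalling, 8 were higher and 10 lower in YFP basal cells at 8 weeks, where 10.4% of all genes were higher and 19.9% lower. At 10 months 11 were higher and 11 lower, where 17.6% of all genes were higher and 25.8% lower. In K8-PIK basal against K8-PIK luminal cells 10 were higher and 4 lower, where 8.9% of all genes were higher and 10.6% lower. The collapsin response mediators, which carry semaphorin signals to the cytoskeleton, were called in both directions. Dpysl2 and Dpysl3 were higher in basal cells at 10 months by 2.97 ± 0.25 and 4.62 ± 0.37. Dpysl4 and Dpysl5 were lower there, with differences of -0.40 ± 0.15 and -1.76 ± 0.36, and Dpysl5 also at 8 weeks (-1.79 ± 0.36). Mical2, an actin oxidase of a family that binds plexins, was higher in basal cells at 10 months by 3.28 ± 0.38. Neo1, a netrin and RGM receptor, was higher by 0.63 ± 0.18. Gipc1, an adaptor that binds neuropilin, was lower, with a difference of -1.95 ± 0.28 at 8 weeks, and Chn1, a Rac regulator downstream of Epha4, was lower at 10 months, with a difference of -2.08 ± 0.31. In K5-PIK luminal against K5-PIK basal cells, 5 were higher and 12 lower, where 10.4% of all genes were higher and 13.2% lower.

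Promoter sequences were read from RefSeq for 58 of the 68 members (GRCm38.p6, 250 bases before to 50 after each start). They were searched on both strands for 4 motifs of factors active in epithelium: GGAATG (TEAD), CAGGTG (E-box), TGANTCA (a loose form of the AP-1 site, N being any base) and TGTTTAC (FOX). Of the 20 members on the basal side at both ages, 16 had a promoter in the table, of which 2 held the TEAD motif, 3 the E-box and 0 the others, where 14.7%, 20.2%, 7.8% and 3.6% of all 32851 promoters held these motifs in that order. Of the 6 luminal members, 5 had a promoter, of which 1 held the E-box and 1 the loose AP-1 form. The latter match, in Sema4d, reads TGAATCA, with A where the AP-1 consensus has C or G. Members were counted by gene, with a match in any promoter of the gene (18 promoters for the 16 basal genes, 9 for the 5 luminal). The shares of all promoters count each promoter singly, so the units differ. The basal members' promoters had a median GC content of 66.7% and 24.0 CpG, the luminal members' 65.3% and 18.0, those of all members 64.0% and 18.0, and all promoters 52.7% and 7.0. The following 4, with a match and from genes described above, were chosen after their values were seen, and capitals mark the matches, none of which overlaps another. They are from Efnb2 at chr8:8661193-8661492 (minus strand), Robo1 at chr16:72662899-72663198 (plus), 1 of the starts of Sema6d at chr2:124653331-124653630 (plus) and 1 start of Sema4d at chr13:51748761-51749060 (minus). A match is no evidence that a factor binds there.
Efnb2: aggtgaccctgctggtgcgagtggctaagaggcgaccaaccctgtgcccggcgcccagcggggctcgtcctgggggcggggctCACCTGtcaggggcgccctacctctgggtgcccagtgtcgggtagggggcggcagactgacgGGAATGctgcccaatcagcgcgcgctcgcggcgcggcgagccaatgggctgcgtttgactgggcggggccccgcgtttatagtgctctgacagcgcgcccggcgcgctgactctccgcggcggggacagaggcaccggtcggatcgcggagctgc
Robo1: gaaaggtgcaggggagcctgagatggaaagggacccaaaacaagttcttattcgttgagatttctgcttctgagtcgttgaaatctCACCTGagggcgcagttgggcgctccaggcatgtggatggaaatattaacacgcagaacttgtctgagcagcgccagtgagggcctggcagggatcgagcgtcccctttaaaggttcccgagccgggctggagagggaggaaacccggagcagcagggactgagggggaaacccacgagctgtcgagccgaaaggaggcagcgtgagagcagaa
Sema6d: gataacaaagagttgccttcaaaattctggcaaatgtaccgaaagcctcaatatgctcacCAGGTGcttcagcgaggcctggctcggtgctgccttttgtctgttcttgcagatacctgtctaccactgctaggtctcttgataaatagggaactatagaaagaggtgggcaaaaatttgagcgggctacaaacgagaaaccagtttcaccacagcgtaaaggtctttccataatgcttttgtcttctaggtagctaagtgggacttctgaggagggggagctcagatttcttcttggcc
Sema4d: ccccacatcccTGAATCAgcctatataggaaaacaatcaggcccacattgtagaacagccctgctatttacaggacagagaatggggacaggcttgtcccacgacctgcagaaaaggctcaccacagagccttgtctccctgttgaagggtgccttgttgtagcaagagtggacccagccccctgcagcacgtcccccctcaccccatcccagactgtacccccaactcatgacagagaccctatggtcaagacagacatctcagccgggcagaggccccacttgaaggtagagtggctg

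Within luminal cells at 8 weeks, no member was called by limma between K8-PIK luminal and YFP luminal cells, against 0.144% of all genes higher and 0.205% lower, with 8 members and 1441 genes at an unadjusted p under 0.05. A value near the threshold was that of Sema6a, at 8.27 and 7.71 in K8-PIK luminal cells, against 6.83 and 6.88 in YFP luminal cells, which was called (adjusted p = 0.037, 1.41 ± 0.25) when K8-PIK luminal array 2 was left out. The K8-PIK basal cells did not differ by a call in any member from YFP basal cells at 8 weeks either, against 0.335% of all genes higher and 0.0836% lower, with 16 members and 1834 genes at an unadjusted p under 0.05. The change in the basal-luminal gap between K8-PIK and YFP cells at 8 weeks called no member, against 0.0076% of all genes, with 10 members and 1275 genes at an unadjusted p under 0.05.

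In basal cells at 10 months, the same driver with and without the oncogene, 3 members were higher (8.28% of all genes) and 3 lower (8.01%), shares of 5.36% each. Ephb6 rose most, at 7.34 and 7.46 in K5-PIK basal cells, against 4.67 and 5.00 in YFP basal cells, a 5.92-fold difference (2.57 ± 0.33, adjusted p = 0.00172). Sema4g, a transmembrane semaphorin, was at 5.94 and 6.98, against 5.06 and 5.46 in YFP basal cells (1.20 ± 0.31), and Efna1, the ligand of Epha2, at 9.48 and 9.33, against 8.24 and 8.55 (1.01 ± 0.31). Sema7a, a lipid-anchored semaphorin that signals through integrins, was at 4.14 and 4.56 in K5-PIK basal cells, against 5.94 and 6.01 in YFP basal cells (-1.62 ± 0.23). Slit2 was at 3.72 and 3.91, against 5.04 and 5.50 (-1.45 ± 0.23), and Sema3g at 3.65 and 3.36, against 4.78 and 5.49 (-1.63 ± 0.30). Ephb6, Sema7a and Slit2 kept their calls whichever array was left out. Endothelial markers were lower in K5-PIK basal cells too (8 of 12 called). With their mean as a covariate the calls on Ephb6 and Sema7a held and those on Efna1, Sema4g, Sema3g and Slit2 were lost. Here too the endothelial means did not overlap between the groups (4.56 to 5.41 against 6.13 to 6.98). The lost calls therefore do not show which cells a transcript came from.

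Ephb6 was the one Eph receptor with a called change in its gate order at 10 months. It was at 4.88 and 5.34 in K5-PIK luminal cells, against 7.34 and 7.46 in K5-PIK basal cells, where YFP cells of that time had 4.67 and 5.00 in the basal gate, against 6.18 and 6.45 in the luminal gate. The change in the basal-luminal gap between K5-PIK and YFP cells was 3.77 ± 0.47 (adjusted p = 0.00378), and it was called without any 1 of the 8 arrays and with the endothelial covariate. That test called 4 members (7.14%), against 7.15% of all genes. The others were Slit2 (-1.64 ± 0.33), Sema3g (-1.59 ± 0.42) and Sema4b (1.20 ± 0.30), each of which lost its call with the covariate and when some arrays were left out. In the luminal gate of this comparison the oncogene and the Cre driver changed together.

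**Figure D4:**
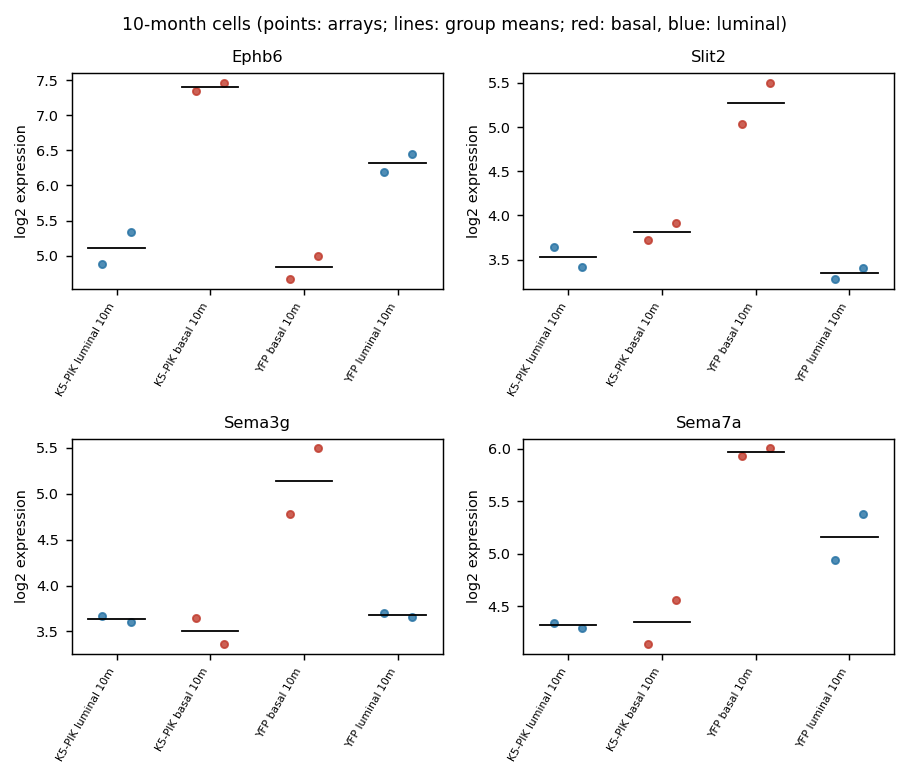
Log2 levels of Ephb6, Slit2, Sema3g and Sema7a in the 4 groups of 10-month cells, 1 point per array (2 per group), with lines at group means, basal in red and luminal in blue. Ephb6 is highest in K5-PIK basal cells (7.34 and 7.46), and Slit2 and Sema3g are high in YFP basal cells only among these 4 groups.

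K5-PIK luminal cells at 10 months, set against YFP luminal cells, had 1 member higher (2.08% of all genes) and 4 lower (4.32%). Efna5 was at 8.57 and 8.32 in K5-PIK luminal cells, against 7.44 and 7.09 in YFP luminal cells (1.18 ± 0.21, adjusted p = 0.0083). Unc5b was at 6.36 and 5.77, against 7.50 and 7.51 (-1.44 ± 0.34). Ephb6, Sema7a and Sema4b were lower with adjusted p of 0.049, 0.0459 and 0.0449. Each of the 5 calls was lost when at least 1 array was left out, and with the 10-month YFP luminal array 2 left out none of them held.

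Few members were called for age. In YFP basal cells at 10 months, against 8 weeks, 2 members were higher (0.874% of all genes) and 1 lower (0.395%). Robo1 was at 10.2 and 9.77 at 10 months, against 8.04 and 8.08 at 8 weeks (1.93 ± 0.39, adjusted p = 0.0365), Sema6d at 8.84 and 8.67, against 7.38 and 7.55 (1.29 ± 0.24, adjusted p = 0.031), and Unc5cl at 3.90 and 4.06, against 4.83 and 4.92 (-0.89 ± 0.17). All 3 calls were lost when any 1 of the 4 arrays was left out. In YFP luminal cells no member was called, against 0.0304% of all genes in either direction, with 8 members and 1227 genes at an unadjusted p under 0.05. Unc5b was at 7.50 and 7.51 in YFP luminal cells at 10 months, against 6.12 and 6.07 at 8 weeks.

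Before the tumours are compared, K8-PIK tumour 3 is described on its own. Its correlation with the other 6 K8-PIK tumours over all genes was 0.919 to 0.944, where those 6 correlated at 0.938 to 0.982 among themselves. It had Epcam, an epithelial surface protein, at 8.08, against 10.5 to 11.3 in the other 6, Krt5 at 6.86, and a mean of 7.71 over 8 fibroblast markers. Fibroblast markers averaged 8.07 in K8-PIK tumour 2 and 4.87 to 6.31 in the other 5, 7.34 and 7.87 in the K8-PIK-p53 tumours and 5.93 to 7.50 in the K5-PIK tumours. The p53 comparison below is given with and without tumour 3.

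Guidance genes varied between K8-PIK tumours more than most genes: the median SD over the 7 tumours was 0.49 for the 56 tested members and 0.31 for all genes tested. Nrp2 had the widest spread, from 4.22 in tumour 5 to 8.43 in tumour 2 and 8.71 in tumour 3, with a median of 5.65. Nrp1 ran from 5.33 in tumour 1 to 8.35 in tumour 2 and 9.06 in tumour 3, with a median of 7.01. The 2 tumours with the highest fibroblast mean were thus the highest in both neuropilins, and the part of fibroblasts in this was not tested. Epha3, a receptor of A-type ephrins also known from mesenchyme, was at 7.76 in tumour 3 and 3.69 to 4.91 in the others. Slit2 ran from 3.41 in tumour 5 to 6.09 in tumour 1 and 6.98 in tumour 3. Of the 56 members, 18 had their highest value in tumour 3. The share of all genes highest in that tumour was not computed, nor were the SDs without it. The count and the SDs therefore cannot be separated from the general divergence of tumour 3.

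Against YFP luminal cells, the normal cells of the same driver (mean of both ages), K8-PIK tumours had 6 members higher, against 4.47% of all genes, and 0 lower, against 6.13%. The limma test for lower levels called none, and 17 members and 3468 genes had an unadjusted p under 0.05 in either direction. Sema5a lay between 6.43 and 9.12 in the 7 tumours, with a median of 7.56, against 4.00, 5.29, 4.44 and 4.15 in YFP luminal cells, so no tumour overlapped the normal cells. The difference was 9.53-fold (3.25 ± 0.42, adjusted p = 0.00012) and was called without any 1 of the 11 arrays. Efna5 lay between 7.89 and 8.95, with a median of 8.59, against 7.54, 7.09, 7.44 and 7.09 in YFP luminal cells (1.23 ± 0.17, adjusted p = 0.000208), also called without any 1 array. Sema6d was higher by 1.16 ± 0.26, Epha7 by 0.63 ± 0.13, Epha4 by 1.00 ± 0.30 and Ephb4 by 0.65 ± 0.20. The tumours overlapped the normal cells for Epha4 and Ephb4. Without YFP luminal array 1 of 8 weeks, 3 of the members in this comparison were called. YFP basal cells, which were not part of this comparison, had Sema5a at 8.24 to 8.93 and Efna5 at 8.56 to 9.25. Basal markers averaged 5.83 to 8.55 in these tumours, against 5.14 to 6.07 in YFP luminal cells. Fibroblast markers averaged 4.87 to 8.07 in the tumours, against 4.75 to 5.75 in YFP luminal cells, with 2 of 7 called higher and a median difference of 1.49. Sema5a was highest in tumour 2 and lowest in tumour 5, the tumours with the highest and the lowest fibroblast mean. The part of either cell type in these values was not tested. Ephb1 was at 3.42 to 5.45 in the tumours, against 3.22 to 3.68 in YFP luminal cells, and was not called.

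Against YFP basal cells, the normal cells of their driver, K5-PIK tumours had 15 members lower, against 14.5% of all genes, and 5 higher, against 15.5%. The median difference was -0.32 for members and 0.04 for all genes. Ephb1 was at 3.75, 3.84 and 4.21 in K5-PIK tumours, against 6.50, 6.79, 6.73 and 7.13 in YFP basal cells (-2.85 ± 0.35, adjusted p = 1.69e-05). Ntn4 was at 6.83, 5.63 and 5.39, against 7.36, 8.57, 7.96 and 8.54 (-2.16 ± 0.42), and Sema3c at 6.06, 6.38 and 7.80, against 8.62, 8.92, 8.50 and 8.69 (-1.93 ± 0.55). All 3 B-type ephrins fell, Efnb3 by 1.39 ± 0.19, Efnb2 by 1.07 ± 0.30 and Efnb1 by 0.75 ± 0.25, and with them Epha4 by 1.60 ± 0.36. Of the 20 calls, 13 held whichever array was left out, while Efnb1, Sema5a and Efna1 lost theirs in 6 of 7 such fits, and Efnb2, Ephb6, Plxna4 and Sema3c in at least 1. Sema6d fell by 1.51 ± 0.31, Sema5a by 1.46 ± 0.51, Sema6a by 1.38 ± 0.40 and Sema3g by 1.69 ± 0.27, and Efna5 and the plexins Plxna1, Plxna2 and Plxna4 fell by less. Ntn1 rose, at 8.57, 8.12 and 7.59 in K5-PIK tumours, against 5.63, 6.15, 5.26 and 6.41 in YFP basal cells (2.23 ± 0.39, adjusted p = 0.000335), and Sema4d by 1.41 ± 0.35. Plxnb2 rose by 0.58 ± 0.15 and Ephb6 by 0.90 ± 0.28, while Efna1 rose by 1.02 ± 0.38 with overlapping arrays. In these tumours 8 of 12 endothelial markers were lower than in YFP basal cells, and luminal markers averaged 9.56 to 9.82, against 6.78 to 8.33. The part of either in these values was not tested.

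**Figure D5:**
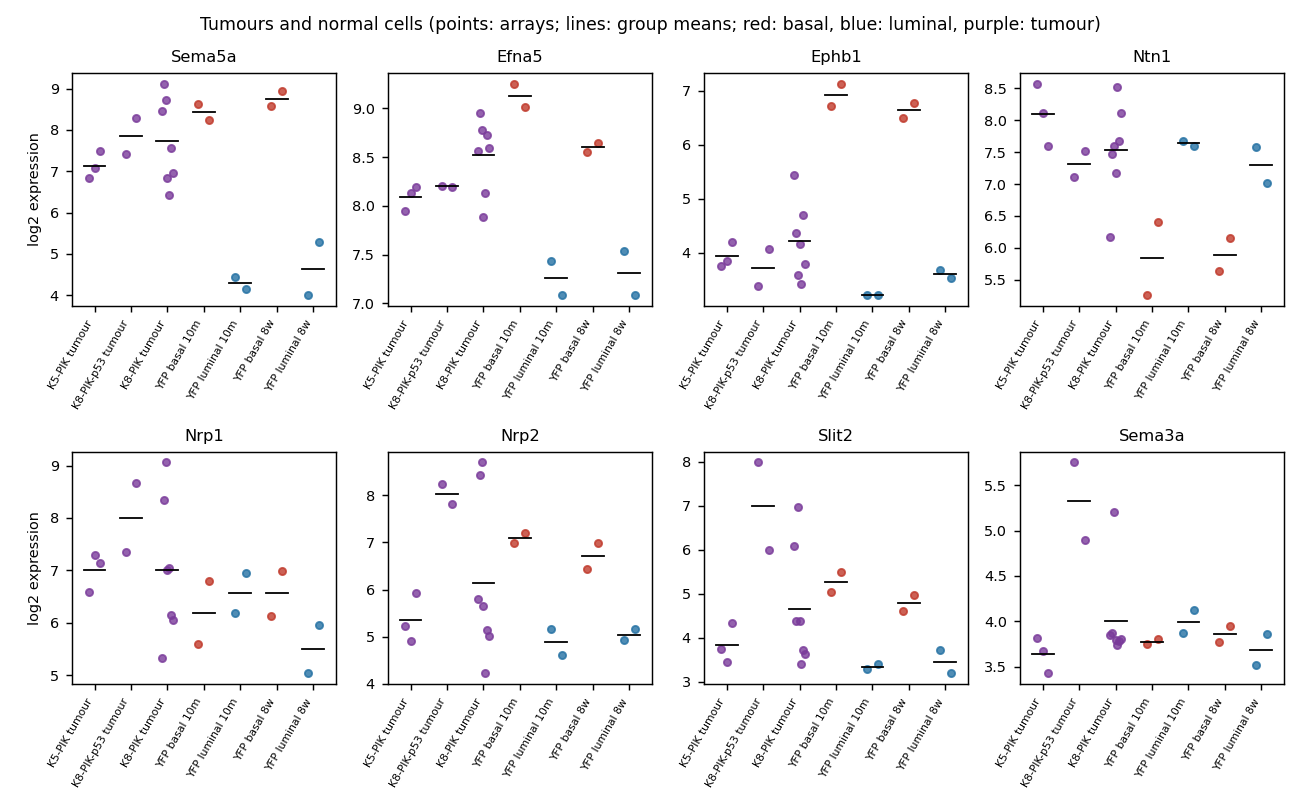
Log2 levels of 8 members in the 3 tumour groups (purple, 3, 2 and 7 arrays), YFP basal cells (red) and YFP luminal cells (blue) at 10 months and 8 weeks, 1 point per array, with lines at group means and a separate vertical scale per gene. Sema5a and Efna5 lie above YFP luminal cells in every tumour, Ephb1 lies below YFP basal cells in every tumour, and K8-PIK tumours are spread widely for Nrp2, from 4.22 to 8.71, while Sema3a has 1 high K8-PIK tumour, at 5.21.

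Sema5a, a basal-side gene in every gate comparison, was at 6.84, 7.07 and 7.50 in K5-PIK tumours and at a median of 7.56 in K8-PIK tumours. Between K5-PIK and K8-PIK tumours no member was called by limma in either direction, against 0% of all genes higher and 0% lower, with 1 member and 1225 genes at an unadjusted p under 0.05. The median difference was -0.02 for members and -0.09 for all genes. For Sema5a the difference was -0.59 ± 0.55 and for Nrp2 -0.78 ± 0.88.

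K8-PIK-p53 tumours, against K8-PIK tumours, also gave no called member by limma, against 0.227% of all genes higher and 0.0982% lower, with 11 members and 2615 genes at an unadjusted p under 0.05. With K8-PIK tumour 3 left out, 7 members were called, where 7.81% of all genes were. These were Sema3a, Slit2 and Sema7a (higher) and Ephb3, Efna1, Sema4a and Sema4d (lower in the p53 tumours). Among K8-PIK tumours, tumour 3 was the highest in Sema3a, Slit2 and Sema7a and the lowest in the other 4. Leaving it out therefore widened each of these 7 differences. The calls rest on that omission and are no separate support for a difference between the groups. Sema3a, the best known repellent semaphorin and a ligand of Nrp1, was at 5.76 and 4.90 in K8-PIK-p53 tumours, against 3.73 to 3.87 in 6 K8-PIK tumours and 5.21 in tumour 3 (1.32 ± 0.36 with tumour 3, 1.52 ± 0.20 without it). Slit2 was at 7.99 and 5.99, against a median of 4.38 in K8-PIK tumours (2.33 ± 0.87 with tumour 3). Ephb3 was at 5.28 and 5.44, against 5.55 in tumour 3 and 6.37 to 7.79 in the other 6, and Sema4a at 5.98 and 5.89, against 6.64 to 8.44 in all 7. Nrp2 was at 8.24 and 7.83 in K8-PIK-p53 tumours, within the range of the K8-PIK tumours. Fibroblast markers averaged 7.34 and 7.87 in the 2 p53 tumours, and only K8-PIK tumours 2 and 3 of the 7 lay above 7.34. Luminal markers averaged 7.72 and 8.49 in the p53 tumours, against 7.50 in K8-PIK tumour 3 and 8.56 to 9.96 in the other 6. The part of either in these values was not tested.

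Over all 11 groups, a moderated F-test called 33 of 57 members (57.9%), against 56.4% of all genes, so the share that varied somewhere was near that of the array as a whole. Ephb1 (F = 22.9) and Sema6d (F = 22.4) had the highest F among members, then Sema5a (15.6) and Efna5 (14.5). Among the 24 not called were Epha2, Nrp1, Nrp2, Plxnb1, Plxnd1 and Unc5b. Of these, Nrp2, Plxnb1, Plxnd1 and Unc5b were called in at least 1 gate comparison of sorted cells. The F-test takes 1 spread per gene for sorted cells and tumours alike. For Nrp2 the SD was 1.74 among K8-PIK tumours and 0.37 between sorted replicates, so a missing call here does not mean equal levels.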

How the data were processed

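The authors deposited 1 log2 value per probe set and array (45141 probe sets, 1.67 to 12.7, array medians 4.40 to 4.50), made with R 2.14.0 per the submitters' processing notes. The background correction, normalization, summary of probes and genome build are not given in the sources used here. Of 29449 probe sets listed in the platform annotation, 28898 had 1 symbol, 551 several, and 15692 further probe sets had no entry. The values were used as deposited and tested with limma 3.58.1 (R 4.3.3), two-sided, with Benjamini-Hochberg adjustment over all genes: sorted cells on 16 arrays and 8 groups, tumours on 12 arrays and 3 groups, tumours against sorted cells and the F-test on 28 arrays and 11 groups. Tables and figures were made with Python 3.11.15, pandas 2.3.3 and matplotlib 3.10.9.

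Members and lists were chosen with earlier results of these data known, so counts over them are descriptions. Called members could be named. Values per array are given for called members with large changes that do not overlap between groups and for a set list of well-known ligands and receptors. The script was tested on simulated data with known changes. Alternatives were the mean of probe sets, no filter, quantile normalization, a replicate block, the endothelial mean as a covariate, other sets of arrays, and each array left out. No array pair was identical, replicate correlations in sorted groups were 0.973 to 0.995, and the number of arrays limits precision.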

Additional observations from a re-analysis of the deposited data

Results flagged for a closer look

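Among the 7 K8-PIK tumours, 9 of the 56 members tested had 1 array far from the other 6 by Dixon's criterion. For a single gene with normal values chance gives this in about 1 of 20 groups. All 9 were in tumour 2 or tumour 3, so they are not independent of each other. The share of all genes flagged on these arrays was not computed, so the count does not show an excess for members. In tumour 3, Epha3 was at 7.76 (others 3.69 to 4.91), Sema7a at 7.66 (4.13 to 5.44), Sema3a at 5.21 (3.73 to 3.87), Plxna1 at 7.72 (6.72 to 7.11) and Efna2 at 5.67 (4.87 to 5.17), while Epha1 was low at 4.99 (5.63 to 6.07). In tumour 2, Sema3b was at 7.15 (5.59 to 6.10), Plxnb2 at 9.32 (8.65 to 8.90) and Ntn5 at 5.56 (5.03 to 5.21). These 2 tumours also had the highest fibroblast marker means of the 7, and the part of that in these values was not tested.

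At 10 months the basal-luminal gap differed between K5-PIK and YFP cells for 4 members by limma's test of the difference itself: Ephb6 by 3.77, Sema4b by 1.20, Slit2 by -1.64 and Sema3g by -1.59.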

How the results depend on the processing

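Quantile normalization kept 151 calls on members and lost 4, no filter kept 147 and lost 8, and the mean of probe sets kept 138 and lost 9. Without the filter, K5-PIK luminal against YFP luminal cells had 3 members called in place of 5, and with the mean of probe sets the 10-month gap between K5-PIK and YFP cells had 2 in place of 4. With the endothelial covariate the counts were 10 (YFP basal against luminal, 8 weeks), 19 (10 months), 1 (K8-PIK luminal against YFP luminal), 2 (K5-PIK basal against YFP basal) and 1 (10-month gap), and Robo4 turned to -0.38 in YFP cells at 10 months. In 1 fit of all 28 arrays they were 19 (YFP gates, 8 weeks), 2 (K5-PIK basal against YFP basal), 12 (K8-PIK gates), 1 (K5-PIK luminal against YFP luminal), 0 (age in basal cells), 1 (10-month gap) and 6 (p53). In a fit of the compared groups only, K8-PIK tumours against YFP luminal cells had 3. The cause of these shifts was not tested.

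Same-numbered arrays deviated together in some pairs of groups and not in others (correlations -0.078 to 0.38 over 28 pairs of sorted groups, 11 of them over 0.1, and -0.085 to 0.199 over 7 pairs in tumours, 1 over 0.1). The numbers were not taken to pair samples, as the rule used asked for every pair over 0.1. That rule spans groups of different genotypes and ages. It cannot decide whether the basal and luminal gates of K8-PIK or of K5-PIK came from the same glands. The labels do not say so either way. With the replicate block 154 calls held and 1 was lost, and the counts became 1 for K8-PIK luminal against YFP luminal cells (Sema6a), 1 for K5-PIK against K8-PIK tumours (Sema5a, -1.63 with adjusted p = 0.0429 by limma) and 14 for K8-PIK tumours against YFP luminal cells.

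Leaving out 1 array gave 19 to 25 (YFP gates, 8 weeks, 19 without luminal array 1), 25 to 29 (10 months), 11 to 21 (K8-PIK gates, 11 without luminal array 2, 13 without basal array 1), 19 to 23 (K5-PIK gates), 0 to 1 (K8-PIK luminal against YFP luminal, 1 without K8-PIK luminal array 2), 3 to 6 (K5-PIK basal against YFP basal, 3 without K5-PIK array 2), 0 to 4 (K5-PIK luminal against YFP luminal), 1 to 6 (10-month gap), 0 to 0 (age in basal cells), 3 to 8 (K8-PIK tumours against YFP luminal, 3 without YFP luminal 8-week array 1), 14 to 18 (K5-PIK tumours against YFP basal), 0 to 7 (p53, 7 without K8-PIK tumour 3) and 29 to 40 (F-test). For K5-PIK luminal against YFP luminal cells the count was 1 and 0 without YFP luminal array 1 or 2, and 2 without K5-PIK luminal array 1. For the 10-month gap it was 1 without YFP luminal array 1 or 2 or K5-PIK luminal array 1, and 2 without YFP basal array 1 or K5-PIK basal array 2. A group left with 1 array is assumed to vary like the others. Genes near the 40th percentile, such as Epha7 and Slit2, are limited by signal over background.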
